A study of Mus musculus with 6 samples.

Results

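The 45 genes described here encode the integrin receptors, the laminin chains they bind and the basement membrane proteins that link laminin to the rest of the matrix. They were picked by symbol from the 25039 genes of the RNA-Seq table. Members are the genes whose symbol begins with Itga or Itgb, those named Lama, Lamb or Lamc plus a number, and *Nid1*, *Nid2*, *Hspg2*, *Agrn*, *Dag1* and *Npnt*, with *Itgb1bp1*, *Itgb3bp* and *Itgbl1* left out. The libraries came from primary mouse embryonic fibroblasts (MEFs), a mixed culture of connective tissue cells from the embryo, used below passage 8 and grown in serum-containing DMEM. One group of 3 libraries was wild type (WT) and the other group of 3 was *Anp32e* null (*Anp32e*-/-). ANP32E is a histone chaperone that removes the variant H2A.Z from chromatin, and the comparison asks which transcripts differ when it is missing. Total RNA was sequenced as stranded libraries, and 1 table with the comparison of both groups was examined, without values for single libraries. Whether the 3 libraries of a group came from separate embryos or cultures is not given in the labels, so the p-values may measure only the spread between these libraries.

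Integrins are receptors made of 1 alpha and 1 beta subunit that hold cells to the extracellular matrix and connect it to actin. The alpha subunit largely sets the ligand, so integrins are grouped into receptors for laminin, for collagen, for proteins with an RGD motif such as fibronectin and vitronectin, and for leukocyte adhesion. The beta1 subunit pairs with most alpha subunits, whereas alphav also pairs with beta3, beta5, beta6 and beta8. Laminins are trimers of an alpha, a beta and a gamma chain, and they form the sheet of the basement membrane on which nidogens, perlecan and agrin assemble. Dystroglycan is a laminin receptor that is not an integrin.

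For each gene the transcript with the largest mean normalised count was taken. Values per group are means computed from the mean over all 6 libraries and the log2 fold change (log2FC, *Anp32e*-/- over WT), and they carry no error of their own. The error of a comparison is the standard error (SE) of its log2FC, and brackets give its 95% interval. A gene was called when its log2FC exceeded 0.5 in size and its adjusted p in the Wald test of DESeq2 was below 0.05, with n = 3 libraries in each group. Of the 45 members, 44 had reads and an adjusted p. *Itgb2l*, a relative of the leukocyte subunit beta2, had no reads. *Itgb1bp2*, which encodes melusin, a muscle protein that binds beta1, lies on chromosome X and was left out of the counts (mean 23.5, log2FC -0.16, adjusted p = 0.828). The other 43 members are autosomal and were counted beside 16693 autosomal genes.

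Some features of the whole table touch these values. *Anp32e* itself had 3259 normalised counts in WT and 1121 in *Anp32e*-/- MEFs (log2FC -1.54, SE 0.0935), a count over the whole transcript that includes any exon left in the null allele. *Xist* was at least 1704-fold lower in *Anp32e*-/- libraries and *Ddx3y*, *Kdm5d*, *Eif2s3y* and *Uty* were at least 221-fold higher, so the sex of the cells and the genotype cannot be told apart. The median log2FC differed between chromosomes, from -0.35 on chromosome 14 to 0.34 on chromosome 19. The 10 fibroblast markers had summed means of 473372 in WT and 493725 in *Anp32e*-/-, most of it from *Vim* (330721 and 330669). Of those 10 markers *Dcn*, *Col3a1*, *Col1a2* and *Pdgfrb* were higher and none was lower. *Dcn* went from 12.7 to 275 and *Col3a1* from 3173 to 9988, and *Lum* was under 3 counts in both groups. Of 8 mesothelial markers, *Upk1b*, *Upk3b*, *Wt1*, *Lrrn4*, *Krt18* and *Msln* were higher and *Krt19* was lower. Summed means were 9724 in WT and 11971 in *Anp32e*-/-, with *Krt19* (9129 and 5671) the largest part of both. *Upk1b* went from 3.47 to 1835, *Upk3b* from 5.04 to 1205, *Krt18* from 280 to 1931 and *Msln* from 283 to 479. *Wt1* and *Lrrn4* lay under 3 counts in WT and were at least 200-fold and 72.3-fold higher. The part of these markers in the differences below was not tested. In bulk RNA, fewer cells of a type and less RNA per cell cannot be told apart.

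Integrin, laminin and basement membrane genes were called in both directions, at a higher share than autosomal genes at large. This is a description without a test, because the members were chosen with results of these data known. Of the 43 members, 9 (20.9%) were higher in *Anp32e*-/- MEFs, against 8.63% of all autosomal genes. Another 10 (23.3%) were lower, against 8.20% of all autosomal genes. Together 19 members (44.2%) were called, against 16.8%, and 24 were not. At a log2FC beyond 1.5 in size, 8 members (18.6%) were called, against 4.98%. Of these, *Itga7*, *Itgb7*, *Lama1* and *Lama3* were higher (4 members, beside 2.79% of all autosomal genes) and *Itga11*, *Itga4*, *Itgad* and *Itgb6* were lower (4 members, beside 2.19%). These calls use fitted values. *Itgad* lay under the floor of 3 counts in *Anp32e*-/-, and its lower bound of 2.58-fold does not reach that size. By the adjusted p alone, 12 members were higher and 12 lower, against 16.8% and 14.2% of autosomal genes and 31% for either direction. When the Wald test asked for a log2FC beyond 0.5 in size, only *Itga7* and *Itgb7* remained higher (2 members) and *Itga11*, *Itgad*, *Itgb6* and *Npnt* lower (4 members). Of all autosomal genes, that test called 3.32% higher and 2.64% lower, so little of the difference in the higher direction was left. The share of calls was also above that of genes at like levels. Among members with a mean of at least 1000, 6 of 17 (35.3%) were called against 10.7% of such genes. At means of 50 to 1000 the call was made for 7 of 14 members against 30.8%, and below 50 for 6 of 12 against 11.3%.

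Among 18 alpha integrin subunits 2 were higher and 6 lower (median log2FC -0.14). Among 8 beta subunits 3 were higher and 2 lower (median 0.60), and among 11 laminin chains 3 were higher and none lower (median 0.28). The median over all 43 members was 0.09, beside -0.003 for all autosomal genes. Apart from *Itgad*, *Itgb6*, *Itgam* and *Itgax*, which lay under 3 counts in at least 1 group, values ranged from -1.78 for *Itga11* to 1.93 for *Itga7*. The median size of the difference without its sign was 0.62 for the members and 0.31 for all autosomal genes.

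**Figure D1:**
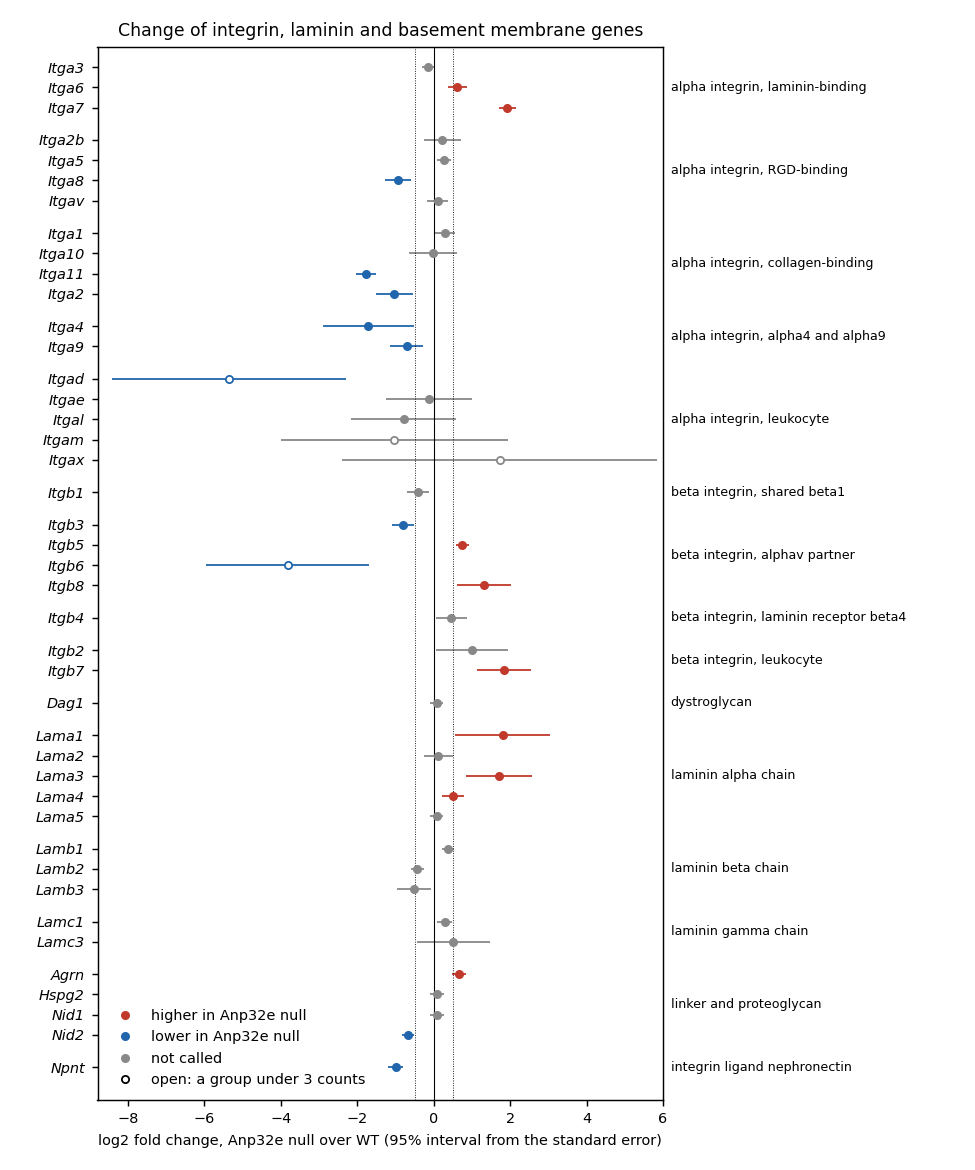
Log2FC of *Anp32e*-/- over WT for members with reads, grouped by class, with points for the deposited values and bars for the 95% interval. Red points are called higher, blue points called lower and grey points not called, with *Itga7* highest among filled points at 1.93 and *Itga11* lowest at -1.78. Open points are fitted values of *Itgad*, *Itgb6*, *Itgam* and *Itgax*, which lay under the floor of 3 counts in at least 1 group and are not exact.

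**Figure D2:**
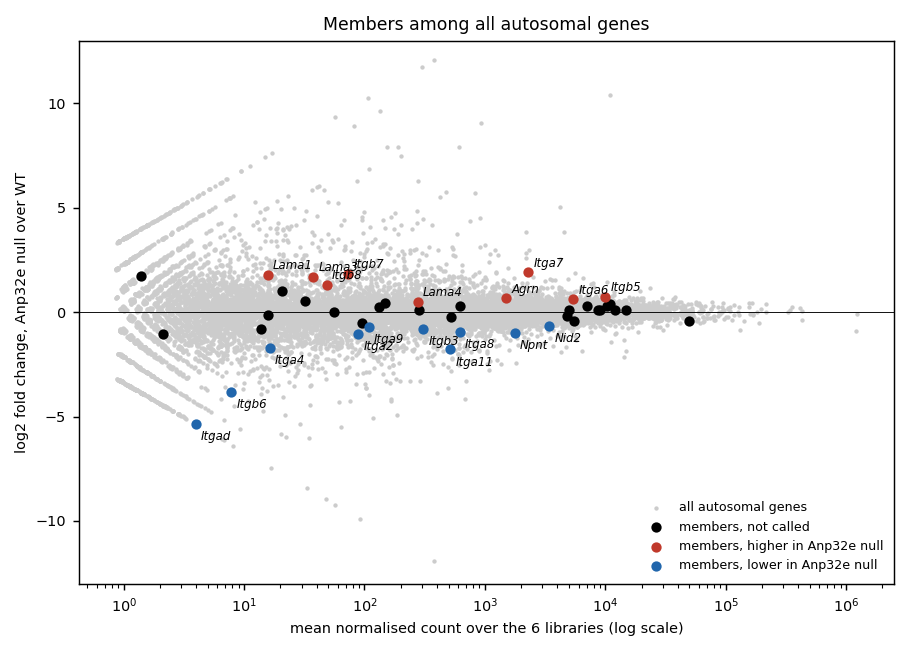
Log2FC of *Anp32e*-/- over WT against the mean normalised count over all 6 libraries (log scale) for all autosomal genes with an adjusted p, with the 43 members on top. Called members are named and lie over a wide range of levels, from *Itgad* at a mean of 3.97 to *Itgb5* at 10005.

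Sequence at or near the gene start was examined for the members with a usable promoter window. RefSeq windows (GRCm38.p6) were matched for 28 members, up to 1000 bases from the start of the representative transcript. The 250 upstream bases of each window were searched whole, including bases that lie in exons. For *Itgb8* (526 bases from that start) and *Itga8* all 250 lay in annotated exons, as did 180 for *Itga2b* and 143 for *Dag1*. Searched on both strands, the GC box (GGGCGG) was found in 12 of the 28 windows of 250 bases (42.9%), beside 32.7% of 32851 promoters in the reference. The reference counts every promoter, without these limits and with more than 1 for some genes, whereas each member counts once. The CCAAT box was in 5 (17.9%, beside 33.8%) and the AP-1 motif TGACTCA in 1 (3.57%, beside 4.46%). A GC box was in 2 of 4 windows of members called higher, 1 of 6 called lower and 9 of 18 not called, numbers too small to compare. The members called higher without a GC box in their window were *Itgb7* and *Itgb8*, the latter searched in exon bases only. The member called lower with one was *Itga4*. Stretches are shown as examples for a pair of genes that rose and a pair that fell. They were chosen after the motifs were seen and do not stand for the other called members. In the stretches shown, bases inside an annotated transcript of the gene were left off, and capitals mark GC boxes on either strand.
*Agrn* (chr4:156197534-156197738, minus strand, higher): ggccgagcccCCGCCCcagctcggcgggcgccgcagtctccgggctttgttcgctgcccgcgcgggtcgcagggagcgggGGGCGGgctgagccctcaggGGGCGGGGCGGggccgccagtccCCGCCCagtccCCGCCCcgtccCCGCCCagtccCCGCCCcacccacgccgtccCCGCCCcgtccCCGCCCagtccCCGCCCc
*Itgb5* (chr16:33829415-33829664, plus strand, higher): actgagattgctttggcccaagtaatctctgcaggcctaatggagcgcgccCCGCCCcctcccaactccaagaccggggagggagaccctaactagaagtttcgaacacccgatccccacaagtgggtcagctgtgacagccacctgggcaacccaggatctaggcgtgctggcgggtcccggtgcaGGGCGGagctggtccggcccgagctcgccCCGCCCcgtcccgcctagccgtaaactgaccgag
*Itga11* (chr9:62677605-62677825, plus strand, lower): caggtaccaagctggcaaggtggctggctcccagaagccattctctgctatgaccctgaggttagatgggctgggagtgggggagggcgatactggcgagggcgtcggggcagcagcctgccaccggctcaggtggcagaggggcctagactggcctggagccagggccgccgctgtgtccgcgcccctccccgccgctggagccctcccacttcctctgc
*Itga2* (chr13:114932101-114932350, minus strand, lower): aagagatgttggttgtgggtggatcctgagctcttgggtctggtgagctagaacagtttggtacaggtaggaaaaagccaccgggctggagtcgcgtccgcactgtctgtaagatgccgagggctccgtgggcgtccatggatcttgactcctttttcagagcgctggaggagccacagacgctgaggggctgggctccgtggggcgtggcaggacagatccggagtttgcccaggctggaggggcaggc
The *Agrn* stretch held 11 GC boxes, of which 1 pair overlaps, with 84.4% G and C, and the *Itgb5* stretch held 3 with 65.2%. Neither the *Itga11* stretch (69.2% G and C) nor the *Itga2* stretch (60.8%) held one, or a CCAAT box or AP-1 motif. A match is a description of the letters and not a measured binding site.

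Of the 3 laminin-binding alpha subunits, 2 rose and none fell. *Itga7*, the laminin-binding alpha7 subunit best known from skeletal muscle (chr10:128933421-128958286, mm10), had 947 normalised counts in WT and 3597 in *Anp32e*-/- MEFs. This was a 3.80-fold increase (log2FC 1.93, SE 0.113 [1.70, 2.15], adjusted p = 1.94e-62), and the interval lay wholly above the threshold. *Itga6*, the alpha6 subunit of laminin receptors in epithelia and many stem cells, rose from 4258 to 6549 (log2FC 0.62, SE 0.122 [0.38, 0.86], adjusted p = 3.88e-06). *Itga3*, whose product alpha3 binds laminins that contain alpha5 or alpha3 chains, had 5040 in WT and 4511 in *Anp32e*-/- and was not called (log2FC -0.16, adjusted p = 0.108). *Itgb4*, the alpha6 partner in hemidesmosomes, was not called either (124 and 170, log2FC 0.46, SE 0.207, adjusted p = 0.0777). The makeup of the laminin-binding alpha subunits can be read from their levels per length. Per kb of transcript, *Itga7* made up 10.4% of the 3 genes in WT and 26.8% in *Anp32e*-/-, *Itga3* 45.9% and 27.8%, and *Itga6* 43.7% and 45.5%.

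No skeletal muscle marker was called higher beside *Itga7*. *Myod1* and *Myf5* had no reads, and of the 5 tested only *Acta1* was called, which fell (log2FC -1.65). The summed mean of the list was 7286 in WT and 2397 in *Anp32e*-/-, nearly all of it from *Acta1* (7141 and 2281). Of 7 Schwann and glial markers, 4 were tested, *Erbb3* was higher (log2FC 1.04), and *Foxd3* and *Cdh19* had no reads, with sums of 111 and 169. *Erbb3* alone had 63.4 and 131.

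Collagen receptors were lower where they were called. *Itga11*, the fibroblast receptor for fibrillar collagen (chr9:62677855-62783979), fell 3.43-fold, from 791 to 231 (log2FC -1.78, SE 0.132 [-2.04, -1.52], adjusted p = 4.99e-39). *Itga2*, the collagen receptor subunit alpha2 of platelets and epithelia, fell from 118 to 58.1 (log2FC -1.03, SE 0.243, adjusted p = 1.72e-04). *Itga1*, the alpha1 subunit that prefers basement membrane collagen IV, had 559 in WT and 689 in *Anp32e*-/- (log2FC 0.30, SE 0.134, adjusted p = 0.0717). *Itga10*, known from cartilage, was at 55.9 and 55.3 (log2FC -0.02, SE 0.323, adjusted p = 0.979), and 33.5% of its exon bases lie in an overlapping gene on the same strand. Per kb, *Itga11* was 66.9% of the collagen-binding alpha subunits in WT and 36.1% in *Anp32e*-/-. *Itga1* went from 21.4% to 48.9% and was the leading collagen receptor gene in *Anp32e*-/- MEFs.

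The main fibronectin and vitronectin receptor alpha subunits stayed below the threshold, while the beta partners of alphav differed in opposite directions. *Itga5*, the alpha5 subunit of the fibronectin receptor, had 9366 and 11324 (log2FC 0.27, SE 0.0911, adjusted p = 0.0108), under the fold threshold. *Itgav* was at 14303 and 15403 (log2FC 0.11, SE 0.14, adjusted p = 0.61). *Itga8*, which encodes the nephronectin receptor alpha8, fell from 809 to 423 (log2FC -0.94, SE 0.178 [-1.29, -0.59], adjusted p = 1.72e-06). *Itga2b*, the platelet alphaIIb subunit, had 121 and 141 (log2FC 0.23, adjusted p = 0.541). Of the other megakaryocyte markers, *Gp9* had no reads and *Ppbp* fell (log2FC -1.18). The list of 5, which includes *Itga2b* itself, summed to 283 in WT and 243 in *Anp32e*-/-.

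Each of the 4 beta partners of alphav was called. *Itgb5* (chr16:33829665-33949338), the abundant vitronectin receptor subunit, rose from 7468 to 12541 (log2FC 0.75, SE 0.089 [0.57, 0.92], adjusted p = 1.47e-15). *Itgb8*, whose integrin activates latent TGF-beta, rose from 27.9 to 69.2 (log2FC 1.31, SE 0.365, adjusted p = 0.00175). *Itgb3*, the beta3 subunit of the vitronectin receptor in osteoclasts and endothelium, fell from 393 to 225 (log2FC -0.81, SE 0.142 [-1.09, -0.53], adjusted p = 1.98e-07). *Itgb6*, an epithelial activator of latent TGF-beta, had 14.7 in WT and lay under the floor of 3 counts in *Anp32e*-/-, at least 4.89-fold lower (adjusted p = 0.00239). *Itgb5* held nearly the whole per-kb sum of these 4 genes in both groups, 96.8% in WT and 98.8% in *Anp32e*-/-.

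*Itgb1*, the shared beta1 subunit, was the most abundant member per kb of transcript, with a mean of 49182 normalised counts over the 6 libraries. It had 56152 counts in WT and 42213 in *Anp32e*-/- (log2FC -0.41, SE 0.153 [-0.71, -0.11], adjusted p = 0.0248), under the fold threshold. With the median of its chromosome taken out, *Itgb1* did not pass the adjusted p either (log2FC -0.31, adjusted p = 0.141). Per kb, beta1 was 86.0% of all beta subunit transcript in WT and 73.7% in *Anp32e*-/-, and beta5 went from 13.3% to 25.5%. These shares are computed from group means and have no error.

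*Itga9* and *Itga4*, whose subunits bind tenascin-C, fibronectin and VCAM1, both fell. *Itga9* went from 134 to 82.0 (log2FC -0.71, SE 0.219, adjusted p = 0.0054), beside a median of -0.22 for its chromosome 9. With that median taken out it was not called (log2FC -0.49, adjusted p = 0.0946). *Itga4* went from 25.0 to 7.63 (log2FC -1.71, SE 0.602 [-2.89, -0.53], adjusted p = 0.017).

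Subunits of leukocyte integrins were present at low levels. *Itgb7*, the partner of alpha4 and alphaE in lymphocyte homing (chr15:102215994-102233405), rose from 31.9 to 115 (log2FC 1.85, SE 0.362 [1.14, 2.56], adjusted p = 3.44e-06). *Itgae*, the alphaE partner, had 16.6 and 15.2 (log2FC -0.12, SE 0.576, adjusted p = 0.898), and neither *Itgae* nor *Itga4*, the known partners of beta7, was called higher. *Itgb2*, the common beta2 subunit, had 13.8 and 27.4 and was not called (log2FC 0.99, SE 0.48, adjusted p = 0.102). *Itgal*, the LFA-1 alpha subunit, had 17.7 and 10.2 (log2FC -0.79, adjusted p = 0.423). *Itgad*, the alphaD subunit of macrophages, had 7.75 in WT and lay under the floor in *Anp32e*-/-, at least 2.58-fold lower (adjusted p = 0.00296). *Itgam* and *Itgax*, found on macrophages and dendritic cells, were under 3 counts in both groups, and 68.7% of the exon bases of *Itgam* lie in an overlapping gene on the same strand. Of 10 leukocyte markers, *Tyrobp* and *Cd3e* had no reads and 8 had a mean under 10. *Csf1r* was higher (26.0 in WT and 54.1 in *Anp32e*-/-, log2FC 1.06) and *Cd68* lower (311 and 203, log2FC -0.62). With chromosome medians taken out, neither was called. The list summed to 350 in WT and 265 in *Anp32e*-/-, most of it from *Cd68*.

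**Figure D3:**
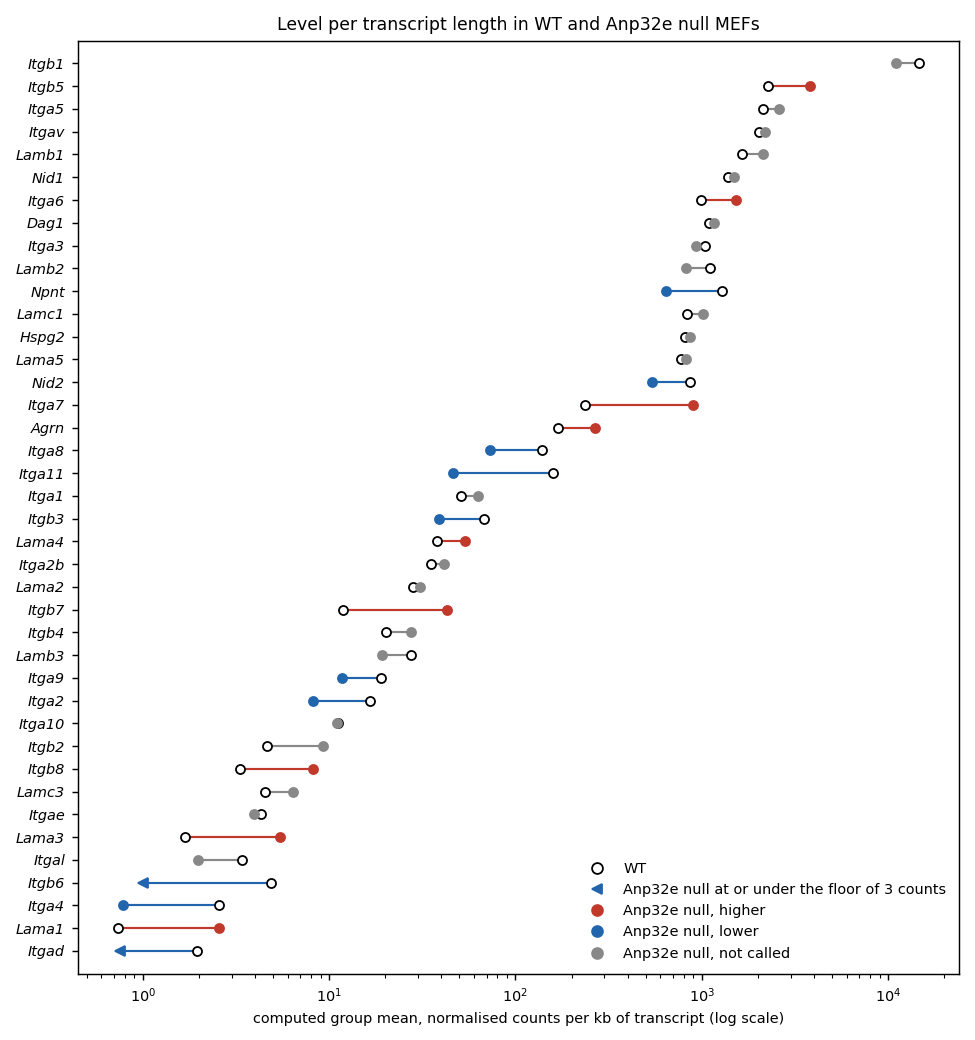
Computed group means per kb of transcript (log scale) for members above 3 counts in at least 1 group, with open points for WT and filled points for *Anp32e*-/-. *Itgb1* leads at 14719 normalised counts per kb in WT and 11065 in *Anp32e*-/-, and arrowheads mark *Itgad* and *Itgb6*, drawn at the floor of 3 counts.

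Among the laminins, the abundant chains stayed under the threshold and 3 of the scarcer alpha chains rose. *Lama5*, the most widespread laminin alpha chain, had 8864 in WT and 9369 in *Anp32e*-/- (log2FC 0.08, SE 0.0865 [-0.09, 0.25], adjusted p = 0.527). *Lama4*, the alpha chain of vessels and mesenchyme, rose from 228 to 324, just over the threshold (log2FC 0.51, SE 0.146 [0.22, 0.79], adjusted p = 0.00267). *Lama1*, the alpha chain of the early embryo, rose from 6.99 to 24.4 (log2FC 1.80, SE 0.634 [0.56, 3.05], adjusted p = 0.0169). *Lama3*, the alpha chain of the laminin that anchors epithelia, rose from 17.7 to 57.6 (log2FC 1.70, SE 0.437 [0.85, 2.56], adjusted p = 5.87e-04). With the median of each chromosome taken out, *Lama4* (log2FC 0.31) and *Lama1* (1.48, adjusted p = 0.0767) were not called. *Lama2*, the alpha chain of muscle and nerve laminin, was not called (272 and 296, log2FC 0.12, adjusted p = 0.67). The 3 chains that rose are a small part of the alpha chain transcript. *Lama5* was 91.9% of the per-kb sum of alpha chains in WT and 89.9% in *Anp32e*-/-, and *Lama1* and *Lama3* together stayed below 1%.

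*Lamb3*, the beta chain of that epithelial laminin, was not called (112 and 78.2, log2FC -0.52, SE 0.231, adjusted p = 0.0713). Of 9 epithelial markers tested, *Cdh1* was higher (5.98 in WT and 128 in *Anp32e*-/-, log2FC 4.42) and *Cldn3* lower (314 and 16.4, log2FC -4.26). *Esrp1* had no reads, and the list of 10 summed to 372 in WT and 206 in *Anp32e*-/-, mostly *Cldn3* in WT and *Cdh1* in *Anp32e*-/-. Of 7 endothelial markers tested, *Egfl7* (log2FC 0.70) and *Tie1* were higher, and *Emcn* had no reads. *Tie1* lay under the floor of 3 counts in WT and had 5.39 in *Anp32e*-/-, at least 1.80-fold higher. The sums were 3600 and 3565, mostly *Kdr* (3114 and 2801), which was not called.

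The common beta and gamma chains gave small differences with small errors. *Lamb1*, the most widespread beta chain, had 9469 and 12313 (log2FC 0.38, SE 0.0833 [0.22, 0.54], adjusted p = 4.34e-05). *Lamb2*, the beta chain of the neuromuscular synapse and kidney glomerulus, had 6263 and 4656 (log2FC -0.43, SE 0.0836 [-0.59, -0.26], adjusted p = 3.24e-06). Both passed the adjusted p alone and missed the fold threshold, in opposite directions. With the median of chromosome 9 taken out, *Lamb2* did not pass (log2FC -0.21, adjusted p = 0.057). Per kb, *Lamb1* was 58.9% of beta chain transcript in WT and 71.6% in *Anp32e*-/-, and *Lamb2* 40.1% and 27.8%. *Lamc1*, the gamma chain of most laminins, had 6358 and 7730 (log2FC 0.28, SE 0.0986, adjusted p = 0.0162), under the fold threshold. *Lamc3* was scarce and not called (26.4 and 37.8, log2FC 0.52, adjusted p = 0.455).

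**Figure D4:**
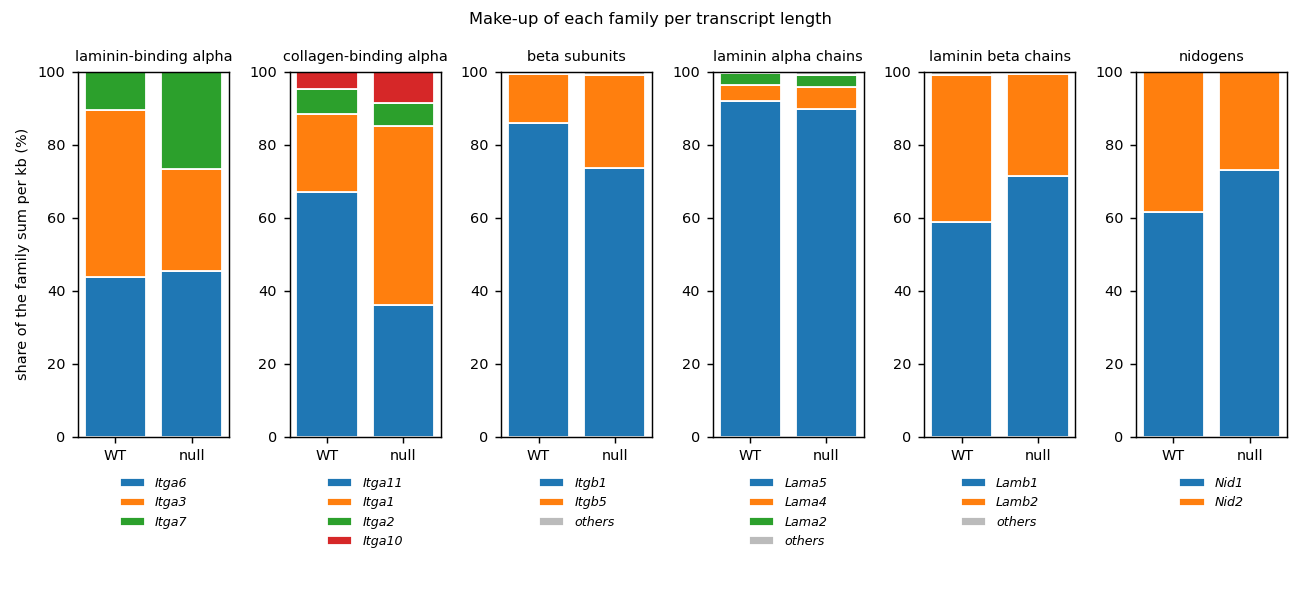
Share of each gene in the per-kb sum of its family in WT and *Anp32e*-/- MEFs, in percent, computed from group means without error. *Itga7* takes 10.4% of the laminin-binding alpha subunits in WT and 26.8% in *Anp32e*-/-, and *Itga11* takes 66.9% and 36.1% of the collagen-binding ones.

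The linkers of the basement membrane divided. *Agrn*, the heparan sulfate proteoglycan agrin that joins laminin to dystroglycan, rose from 1166 to 1837 (log2FC 0.66, SE 0.0931 [0.47, 0.84], adjusted p = 4.23e-11). *Nid2*, a nidogen that bridges laminin and collagen IV, fell from 4222 to 2649 (log2FC -0.67, SE 0.0767 [-0.82, -0.52], adjusted p = 6.80e-17), beside a median of -0.35 for chromosome 14 on which it lies. With that median taken out, the log2FC of *Nid2* was -0.32, under the threshold. *Nid1*, the other nidogen, was at 8474 and 9025 (log2FC 0.09, SE 0.0941 [-0.09, 0.28], adjusted p = 0.505). Per kb, *Nid2* was 38.4% of the nidogen transcript in WT and 26.8% in *Anp32e*-/-. *Hspg2*, the perlecan core protein, did not pass the test (11588 and 12316, log2FC 0.09, SE 0.0926 [-0.09, 0.27], adjusted p = 0.514), nor did the laminin receptor *Dag1* (4848 and 5129, log2FC 0.08, SE 0.0864 [-0.09, 0.25], adjusted p = 0.519). *Npnt* encodes nephronectin, the basement membrane ligand of alpha8beta1. It fell 1.99-fold, from 2348 to 1178 (log2FC -0.99, SE 0.102 [-1.19, -0.80], adjusted p = 7.45e-21), beside a log2FC of -0.94 [-1.29, -0.59] for its receptor gene *Itga8*.

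Genes that work with the members were counted in the same table. For comparison, 8.63% of all autosomal genes were called higher and 8.20% lower, 16.8% in either direction. Of 22 other basement membrane components, 7 were higher and 3 lower (median log2FC 0.44). The collagen IV chain genes *Col4a4* (2.11) and *Col4a3* (1.99) had the largest increases on the log2 scale among autosomal genes of the list, to which the count is limited, and *Col15a1* (-2.62), for a collagen next to basement membranes, and *Smoc1* (-0.75) the largest decreases at means of at least 50. Of 26 other integrin ligands, 7 were higher and 4 lower (median -0.01). *Col3a1* (log2FC 1.65), the fibrillar collagen III gene, and *Tgfbi* (1.51) rose most, while *Edil3* (-3.29), an RGD ligand of alphav integrins, and *Tnc* (-0.70), the tenascin-C gene, fell. Of 27 focal adhesion adaptors and kinases, 4 were higher and 3 lower (median -0.11). *Tns1* (1.08), for the actin linker tensin 1, and *Fermt3* (0.69) were higher, and *Fermt2* (-0.64), the integrin activator kindlin-2 of fibroblasts, and *Parvb* (-0.62) were lower. *Fermt3* lies on chromosome 19 (median 0.34) and *Fermt2* on chromosome 14 (median -0.35). With chromosome medians taken out, neither was called, and the list had 1 higher and 1 lower. Of 24 genes of the dystroglycan complex and its glycosyltransferases, 1 was higher and 3 were lower (median -0.06), with the lowest log2FC for the sarcoglycan gene *Sgcd* (-1.63). The share called in that list was near that of all autosomal genes.

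Where a member has several transcripts, their log2FC values lay close together in most cases. The 45 members have 78 transcripts, and 13 members have transcripts whose values differ. In 1 of the 7 called members among them, *Agrn*, a transcript was not called. That transcript had a mean of 107 (log2FC 0.48, adjusted p = 0.0745), beside 1501 for the representative. In *Lama3* the other transcript was called too, with a log2FC of 1.36. Among the called members, exons on the opposite strand overlap 8.60% of *Itgad*, 8.45% of *Nid2*, 8.04% of *Itga4* and 5.05% of *Itga8*, and a gene on the same strand overlaps 7.32% of *Itgad*. How the counting treated such bases is not given in the sources used here.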

How the data were processed

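RNA-Seq of 3 WT and 3 *Anp32e*-/- MEF libraries was examined from the authors' deposited DESeq2 table of 42361 RefSeq transcripts. The authors used RNA-STAR for alignment to mm10, Subread featureCounts for counts per transcript and DESeq2 in its default form. The settings for strand and overlapping features are not given in the sources used here. The signal column deposited is the mean over 6 libraries of counts divided by size factors. The log2 fold changes and their standard errors, the score (the Wald statistic) and each p-value are those the authors deposited, with Benjamini-Hochberg adjustment after independent filtering. These are the authors' own comparison columns and no others were used. Without values per library no model was fitted, and depth, replicate SD and counting intervals are unknown. Precision is the deposited standard error.

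Transcripts were matched to genes with RefSeq and GENCODE tables of GRCm38, leaving 163 unmatched. Group means followed from the mean and the log2FC. Group means up to 3 counts were treated as a floor, and folds against them are lower bounds. Chromosome X and Y genes were left out of the counts. Values of 1 member and of some listed genes are not reported here. Intervals used 95% normal quantiles. Scripts ran in Python 3.11.15 with pandas 2.3.3 and scipy 1.17.1, and the recomputed tests were checked on simulated data. Alternatives changed the thresholds, the adjustment, the transcript per gene, the minimum mean and the centring of log2FC. Members, gene lists and thresholds were chosen with earlier results of these data known. The named genes were *Anp32e*, every member, called or unread markers and sex-linked genes. Of each pathway list they were the 2 largest and 2 smallest log2FC among called genes with a mean of at least 50. *Vim*, *Lum* and *Kdr* were named to describe the marker lists.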

Additional observations from a re-analysis of the deposited data

How the results depend on the processing

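No paired analysis was possible because the table holds no values per library, so the replicate block, the fits that leave out a library and a refit with edgeR were not run. With an absolute log2FC over 1.5, 4 members were higher and 4 lower. When the Wald test asked for a log2FC beyond 0.5 in size, 2 remained higher (*Itga7*, *Itgb7*) and 4 lower (*Itga11*, *Itgad*, *Itgb6*, *Npnt*). That test called 3.32% of all autosomal genes higher and 2.64% lower. The other settings gave 8 to 12 members in each direction. With a mean of at least 10, *Itgad* and *Itgb6* left the count. An adjusted p under 0.01 lost *Lama1* and *Itga4*, and a call in every transcript lost *Agrn*. With the median of each chromosome taken out, 8 were higher and 8 lower. *Lama1*, *Lama4*, *Itga9* and *Nid2* were then not called and *Itgb4* was (log2FC 0.61, adjusted p = 0.0173). Only uncalled members changed sign there, *Itga5* to -0.048, *Itga10* to 0.024, *Itgae* to 0.034 and *Lama2* to -0.067. Taking out the autosomal median changed no call.

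At a log2FC over 1.5, focal adhesion genes had 0 higher and 0 lower, the dystroglycan list 0 higher and 1 lower, other basement membrane components 3 higher and 1 lower, and other integrin ligands 2 higher and 1 lower. The shares of all autosomal genes at that size were 2.79% higher and 2.19% lower. With chromosome medians taken out, focal adhesion genes had 1 higher and 1 lower, beside 6.63% and 7.19% of all autosomal genes. The threshold itself sets the first of these, and the cause of the last was not tested. The median of the members ranged from 0.09 to 0.10 on the log2 scale over the settings tried, and it is the same with *Itgad* and *Itgb6* at their bounds. Depth is not known, so members under the floor in 1 group are given as lower bounds and those under it in both groups without a fold.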
